A study of Mus musculus with 73 samples.

Results

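Extraembryonic ectoderm (ExE) of mouse embryos at embryonic day 6.5 was compared between a knockout of Dnmt1 and the wild type. ExE is the trophoblast tissue above the epiblast, from which the chorion and much of the placenta form. The 10 ExE libraries of this contrast, taken by their labels from 72 in the deposited table, were 3 Dnmt1 knockout and 7 wild-type libraries, each from 1 embryo. Of 30546 genes in the table, the 29557 autosomal genes were analysed. Embryos of both groups came from eggs of BDF1 females, a hybrid of C57BL/6 and DBA mice, fertilised by injection of sperm of CAST, a wild-derived strain. The maternal allele was therefore BDF1 and the paternal allele CAST, and reads over polymorphisms showed the parent of origin. For the knockout, zygotes received Cas9 mRNA with several guide RNAs against different exons of Dnmt1, chosen to avoid CAST polymorphisms. Editing outcomes can differ between such embryos, and all blastocysts developed in CD-1 foster mothers. Whether wild-type zygotes received a mock injection is not given in the sources used here. The Dnmt1 group held 1 male and 2 female embryos and the wild type 4 males and 3 females. The epiblast of the same embryos (3 Dnmt1, 7 wild type), 8 ExE libraries of a double knockout of the histone methyltransferases G9a and Glp in the same cross, and 4 wild-type ExE libraries of the reciprocal cross (CAST mother, BDF1 father, natural mating) served as references.

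Dnmt1 is the maintenance DNA methyltransferase. With its partner Uhrf1 it copies methylation onto the new DNA strand after replication, so cells that divide without it lose methylation passively. Imprinted genes are expressed mainly from 1 parental allele because a differentially methylated region acquired in the egg or the sperm (a germline DMR, gDMR) is kept through development. Some placental imprints, called noncanonical, instead start from histone H3 lysine 27 methylation inherited from the egg. The trophoblast has less DNA methylation than the epiblast and relies on several imprinted genes for its growth. Promoters of many germline genes are kept silent in somatic cells by DNA methylation.

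The deposited reads, which count only reads over polymorphisms, summed to 1710457 to 2324585 in the Dnmt1 libraries and to 2685835 to 3053690 in the wild type. Genes with at least 10 reads numbered 8421 to 8954 and 8603 to 9019, and the maternal share of autosomal reads was 56.3% to 56.5% against 56.9% to 57.7%. Wild-type embryos 6 and 8 stood apart: their median correlation with the other wild-type libraries was 0.912 and 0.930, against 0.968 to 0.971 for the other 5. Results were therefore also computed without them. Levels below are normalised CPM, that is reads per 1000000 after TMM scaling, a scaling by the bulk of genes that was set within each tissue. In bulk tissue, fewer cells of a type and less RNA per cell cannot be told apart.

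Dnmt1 itself (chromosome 9, 20907206 to 20959888, mm10) stood at 45.3, 31.6 and 4.69 CPM in Dnmt1 replicates 1, 2 and 3. The wild type ranged from 39.3 to 62.4 CPM with a median of 51.6. The library labelled Dnmt1 replicate 1 thus lay inside the wild-type range and the other 2 below it. The difference was -0.92 ± 0.42 (log2, SE) and did not pass the threshold (edgeR quasi-likelihood test, adjusted p 0.147). It did so when all knockouts of the tissue shared 1 fit (0.0374) and with the replicate number as a block (-1.36, adjusted p 0.00369). Here and below, the replicate block pairs unrelated embryos wherever Dnmt1 ExE is set against the wild type. Wild-type embryos whose number no Dnmt1 library has add nothing to the blocked difference. Without the block, the size of the Dnmt1 difference rested on replicates 1 and 3: it was -1.56 without replicate 1 (0.0535) and -0.43 without replicate 3 (0.335). Small Cas9 lesions can leave a transcript in place, so this level does not measure loss of the protein. The maternal share of its reads ran from 41.7% to 54.5% in the wild type and lay outside that range in all 3 Dnmt1 libraries: 61 of 94 reads were maternal in replicate 1 (exact 95% interval of the share 54.4% to 74.5%), 7 of 59 in replicate 2 (4.91% to 22.9%) and 8 of 12 in replicate 3 (34.9% to 90.1%). The intervals of replicates 1 and 3 overlap the wild-type range and that of replicate 2 does not. These intervals cover counting error only. In epiblast of the same 3 embryos Dnmt1 stood at 7.16, 10.5 and 4.54 CPM, below the lowest wild-type epiblast at 24.5 CPM. At imprinted genes, whose allele shares are given next, replicate 1 held no fixed place among the 3. It was the nearest to the wild type at Peg3, Sgce, Kcnq1ot1, Rian, Ascl2, Cd81 and Tssc4. At Mest, Peg10, Impact, Mcts2, Meg3, Gm32885 and Jade1 it was the farthest. It lay between the other 2 at H19, Snrpn-Snurf, Phlda2, Slc38a4 and Sfmbt2.

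The first comparison asked whether the parental allele ratio of each gene depended on Dnmt1. Of 7708 autosomal genes tested, 66 (0.856%) changed ratio at an adjusted p under 0.05, 31 (0.402%) with a higher maternal share and 35 (0.454%) with a higher paternal one (edgeR quasi-likelihood test with Benjamini-Hochberg adjustment). An unadjusted p under 0.05 was found in 8.65% of the genes. In 55 of the 66 the Dnmt1 mean lay nearer to 50%. The matching share over all genes tested was not counted. Genes read almost wholly from 1 allele in the wild type also have little room to move the other way. From a list of 71 imprinted genes, 33 could be tested and 18 changed ratio: 8 of 15 at gDMRs methylated in the egg, 3 of 4 at gDMRs methylated in sperm, 3 of 7 in the placental Kcnq1ot1 domain and 4 of 7 noncanonical genes. Without any 1 library the listed genes past the threshold numbered 16 to 19, and without wild-type embryos 6 and 8 they numbered 19. The whole count fell to 28 without Dnmt1 replicate 3, 40 without replicate 2, 36 without replicate 1 and 43 without wild-type embryo 7. These p-values measure the spread between the sampled embryos.

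To name a silent allele independently of any list, a gene was called parentally biased when its mean maternal share was at least 70% or at most 30% in both wild-type crosses, with every library on 1 side of 50%. This held for 42 of 8654 genes, 13 expressed from the maternal and 29 from the paternal allele. Of these, 34 could be tested and 22 changed ratio, all 22 toward the silent allele (6 of 10 maternal and 16 of 24 paternal genes). Because the rule used the wild-type shares, which lie near 0 or 100%, it leaves little room for the other direction. The median share of the silent allele over these genes was 24.3%, 20.3% and 25.7% in Dnmt1 replicates 1, 2 and 3. In the 7 wild-type libraries it was 0.564% to 2.69%. Genes differed by locus: the medians of the maternal-gDMR class were 43.2%, 38.9% and 40.0%, those of the paternal-gDMR class 40.1%, 33.1% and 39.5%, those of the Kcnq1ot1 domain 7.5%, 14.0% and 14.9%, and those of the noncanonical class 23.1%, 9.09% and 14.8%. Each library contributes the genes with enough reads in it, so the medians do not rest on identical genes.

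**Figure D1:**
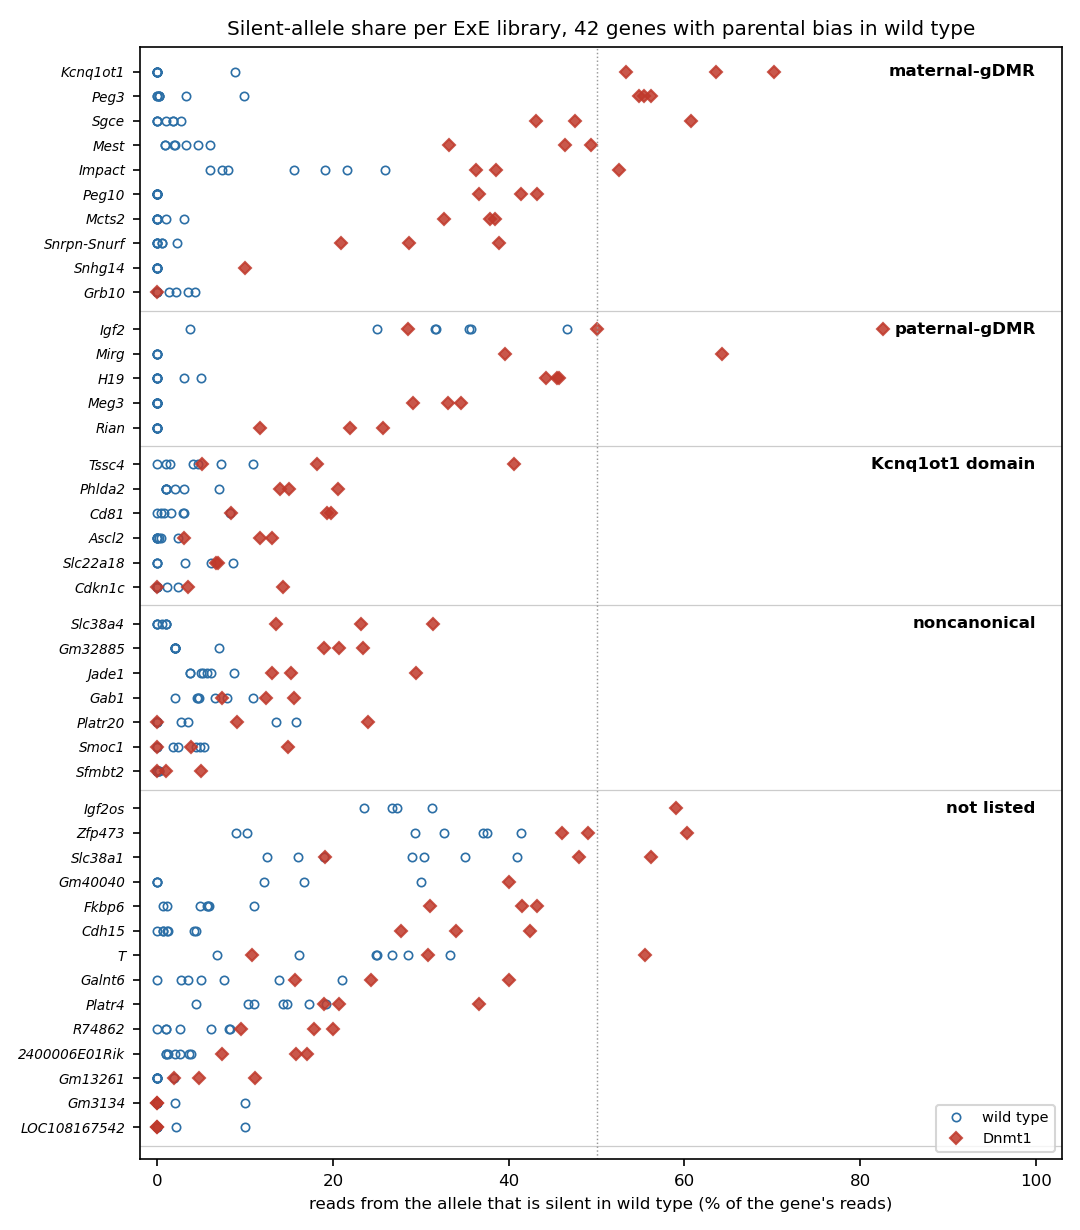
Percentage of a gene's reads from the allele that is silent in the wild type (x axis) for the 42 parentally biased genes (rows, grouped by locus class), with 1 point per library: 7 wild type (open circles) and 3 Dnmt1 (filled diamonds). In the Dnmt1 libraries Peg3 lies at 54.8% to 56.2% and Kcnq1ot1 at 53.3% to 70.3%, whereas Sfmbt2 and Cdkn1c overlap the wild type.

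Genes at maternally methylated gDMRs, normally read from the paternal allele, gained maternal reads in all 8 of the biased genes that could be tested. Peg3 (chromosome 7, 6703892 to 6730441), a zinc-finger gene that affects growth and maternal care, had 54.8%, 56.2% and 55.4% maternal reads in the Dnmt1 libraries. In the wild type its maternal share ran from 0% to 9.82% with a median of 0.152%, so the groups did not overlap. Its log ratio of maternal to paternal reads rose by 6.19 ± 0.59 (log2, SE; edgeR adjusted p 1.42e-06). Mest (chromosome 6, 30733506 to 30748466), a hydrolase-like protein linked to fetal growth, had 49.4%, 46.4% and 33.1% maternal reads against 0.82% to 5.94% (adjusted p 2.17e-07 by the same test). One of its 3 promoter windows in the RefSeq table is shown for 2 copies of TGCCGC, the core of the motif read by the imprint-protecting factor ZFP57, found in either strand and set in capitals (chr6:30737800-30738049, plus strand). It belongs to a start site inside the gene, and the window before the outermost start holds 0 copies.
Mest: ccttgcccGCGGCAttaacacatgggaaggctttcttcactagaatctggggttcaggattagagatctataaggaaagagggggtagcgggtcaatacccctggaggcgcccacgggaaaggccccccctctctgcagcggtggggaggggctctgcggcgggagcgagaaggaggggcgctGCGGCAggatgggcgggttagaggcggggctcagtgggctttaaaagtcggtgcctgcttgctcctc

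Peg10 and Sgce lie head to head on chromosome 6 (Peg10 4747306 to 4760517, Sgce 4674350 to 4747204). Peg10, a gene of retrotransposon origin needed for the placenta, had 43.2%, 36.6% and 41.4% maternal reads, while all 7 wild-type libraries had 0%. Sgce, which encodes epsilon-sarcoglycan, had 43.1%, 60.7% and 47.6% against 0% to 2.63%. Neither gene's groups overlapped (adjusted p 1.42e-06 for Peg10 and 9.62e-08 for Sgce, edgeR). Kcnq1ot1 (chromosome 7, 143213111 to 143296547), the long noncoding RNA that silences its neighbours on the paternal chromosome, had 53.3%, 63.6% and 70.3% maternal reads. Its highest wild-type library was at 8.82% and the median at 0% (adjusted p 2.81e-06). Snrpn-Snurf, a splicing-factor transcript of the Prader-Willi domain, had 28.7%, 38.9% and 20.9% against 0% to 2.2% (2.17e-07). Mcts2, an intronic retrogene of H13, had 38.5%, 37.9% and 32.6% against 0% to 3% (2.76e-07).

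Impact, a translational regulator, was already less strictly paternal in the wild type, with maternal shares of 6.03% to 25.9% and a median of 15.6%. The Dnmt1 libraries had 52.5%, 36.3% and 38.6%, all above that range (change 2.29 ± 0.41 in log2 ratio; edgeR adjusted p 0.00588, but 0.0575 by limma). Grb10, an adaptor that restrains insulin signalling, is read from the maternal allele in trophoblast. It could not be tested for ratio because its reads fell to 1, 13 and 9 in the Dnmt1 libraries. Listed genes of this class without a strict wild-type bias did not pass the test. Copg2 had 47.3% ± 1.55 maternal reads in Dnmt1 (SD, n = 3) and 46.0% ± 5.50 in the wild type (n = 6). Commd1 had 45.7% ± 13.2 against 47.2% ± 7.68, and H13 had 54.1% ± 8.98 against 65.4% ± 6.63. Pon2 was read at 96.0% ± 2.41 from the maternal allele in this cross but at 3.78% in the reciprocal one (n = 4). Its bias therefore followed the BDF1 strain and not the parent. It stayed at 89.4% ± 7.54 in Dnmt1.

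Of the genes at sperm-methylated gDMRs, 3 changed ratio, toward the paternal allele. H19 (chromosome 7, 142575530 to 142578146), a noncoding RNA expressed from the maternal allele, fell from 95% to 100% maternal reads in the wild type to 54.5%, 54.3% and 55.7%. The change was -6.37 ± 0.73 in log2 ratio (edgeR adjusted p 1.94e-05). Meg3 and Rian are noncoding RNAs of the Dlk1-Dio3 cluster on chromosome 12 (Meg3 109540996 to 109571729, Rian 109603945 to 109661716). Meg3 had 65.4%, 66.9% and 70.9% maternal reads where all 7 wild-type libraries had 100% (adjusted p 7.57e-06). Rian had 88.3%, 78.1% and 74.3% against 100% in the 6 wild-type libraries with enough reads. Its call (0.00644) was lost when all knockouts of the tissue shared 1 fit (0.234). Igf2, the growth factor whose paternal expression H19's control region sets, had few reads and did not pass: its maternal share was 50%, 28.6% and 82.6% against 3.7% to 46.7% (adjusted p 0.489). Of 2 Meg3 promoter windows in the table, the one before the outermost start holds 1 copy of TGCCGC, in capitals (chr12:109540746-109540995, plus strand), and the other holds 0.
Meg3: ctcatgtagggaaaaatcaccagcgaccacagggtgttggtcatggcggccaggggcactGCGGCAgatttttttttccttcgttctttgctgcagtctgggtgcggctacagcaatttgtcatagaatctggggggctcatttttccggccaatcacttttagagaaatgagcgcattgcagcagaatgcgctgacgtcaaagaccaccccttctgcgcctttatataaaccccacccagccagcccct

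The Kcnq1ot1 domain of chromosome 7 holds maternally expressed genes of placental growth, and 3 of the 7 tested changed ratio, each keeping most reads on the maternal allele. Phlda2 (143501545 to 143503145), a growth restrainer of the placenta, had 85.1%, 86% and 79.4% maternal reads, below the wild type at 93% to 99% (change -3.12 ± 0.44; edgeR adjusted p 0.000354, but 0.109 with a trended, robust dispersion). Ascl2 (142966822 to 143008033), a transcription factor of spongiotrophoblast progenitors, had 97%, 87% and 88.4% against 97.6% to 100%, so that replicate 1 lay just outside the wild type. It too passed the test (4.94e-05). Cd81, a tetraspanin, had 91.7%, 80.2% and 80.7% against 91.8% to 100%. Its call (adjusted p 0.0388) was the least steady of the listed genes and was lost in 11 of 18 alternatives, among them each of the 3 that left out a Dnmt1 library (0.0513 without replicate 1, 0.38 without 2, 0.221 without 3). Cd81 overlaps R74862, with which it can share reads. Tssc4, of uncertain role in trophoblast, had 94.9%, 59.4% and 81.8% against 89.1% to 100% and did not pass (0.124). Without Dnmt1 replicate 1 or wild-type embryo 8 it did (0.0346 and 0.0473), as it did without embryos 6 and 8 (0.0406) and with the replicate block (0.00208). Cdkn1c, a cell-cycle inhibitor, had 85.7%, 100% and 96.6% over only 14, 14 and 58 reads (0.328, and 0.041 by limma), and Nap1l4, which is read from both alleles, had 48.8% ± 0.0933 against 54.8% ± 4.18.

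Noncanonical genes, all paternally expressed, differed among themselves. Slc38a4 (chromosome 15, 96994823 to 97055956), an amino acid transporter, had 23.1%, 13.5% and 31.3% maternal reads against 0% to 0.978% (change 5.84 ± 0.41; edgeR adjusted p 6.36e-08). Its neighbour Gm32885, a noncoding transcript (97157117 to 97167278), had 23.4%, 20.7% and 19% against 1.99% to 7% (3.93e-07). Jade1 (chromosome 3), a subunit of a histone acetyltransferase complex, had 29.4%, 13.1% and 15.3% against 3.66% to 8.75%. It passed at 0.00137 but not without Dnmt1 replicate 1 (0.0508). Slc38a4 and Gm32885 were paternal in wild-type epiblast too, at 1.74% ± 2.18 and 7.35% ± 2.46 maternal reads (SD, n = 7). Gab1 and Jade1 stood there at 47.6% ± 6.13 and 47.7% ± 8.90, Sfmbt2 at 58.2% ± 24.8 (n = 5) and Smoc1 at 44.1% ± 31.2 (n = 3). In Dnmt1 epiblast Slc38a4 had 29.6% ± 4.98 (n = 3). No noncanonical gene reached the shares of Peg3 or H19 in any Dnmt1 library, but the 2 classes overlapped. Slc38a4 lay above canonical Snrpn-Snurf in Dnmt1 replicate 3 (31.3% against 20.9%) and below it in replicates 1 and 2. Jade1 lay above Snrpn-Snurf in replicate 1 (29.4% against 28.7%) and below it in replicates 2 and 3. The promoter window before the outermost start of Slc38a4, the noncanonical gene with the largest log2 change in ratio, is shown (chr15:97055957-97056206, minus strand). It holds 0 copies of TGCCGC and 3 CpG. Neither feature separates the classes in these windows: the canonical genes Peg3 and Kcnq1ot1 also hold 0 copies, with 8 and 5 CpG, and the Mest window before the outermost start holds 7 CpG. The noncanonical genes Gab1 and Jade1 hold 0 copies too, with 24 and 25 CpG in the windows of Gab1 and 6 to 35 in those of Jade1.
Slc38a4: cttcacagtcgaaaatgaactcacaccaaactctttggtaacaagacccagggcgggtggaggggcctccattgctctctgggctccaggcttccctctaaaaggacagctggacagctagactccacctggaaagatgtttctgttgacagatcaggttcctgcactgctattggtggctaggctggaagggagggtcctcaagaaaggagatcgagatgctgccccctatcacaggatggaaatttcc

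Sfmbt2 (chromosome 2, 10370437 to 10595253), a Polycomb-group gene needed for trophoblast, had 1.02%, 0% and 5.01% maternal reads against 0% to 0.199%. The groups overlapped at 0%, and the call (edgeR adjusted p 0.0045) rested on Dnmt1 replicate 3, without which it was 0.229. It was also lost by limma (0.288) and with a trended, robust dispersion (0.223). Gab1, a signalling adaptor of placental growth factors, had 15.6%, 7.32% and 12.3% against 2.04% to 10.9% and did not pass (0.188, but 0.011 with the replicate block). Smoc1, an extracellular calcium-binding protein, had 0%, 3.85% and 14.8% (0.696), and its mean of 6.22% ± 7.69 compares with 2.65% ± 2.22 in the wild type. For H19, Phlda2, Gm32885, Sfmbt2 and Slc38a4, whose counts are high, shares in several libraries are known only to the nearest whole percentage point. A share of 0% in such a library can hide a few reads.

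Outside the lists, 14 genes had a wild-type parental bias, 10 of them could be tested, and 4 changed ratio. Fkbp6 (chromosome 5), a cochaperone of meiosis and of the piRNA pathway that was on the germline list, had 43.3%, 41.5% and 31.0% maternal reads against 0.606% to 11% (change 3.64 ± 0.35; edgeR adjusted p 1.42e-06). Cdh15 (chromosome 8, 122848374 to 122867397), the muscle cadherin, had 27.7%, 34.0% and 42.4% against 0% to 4.4% (1.68e-07). Both were paternal in the reciprocal cross as well, at 5.34% and 10.2% maternal reads (n = 4). Gm13261, a noncoding gene beside Sfmbt2, had 4.71%, 1.89% and 11.1% against 0% to 1.92% (0.0275).

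The other 44 genes that changed ratio were neither listed nor parentally biased. Their median absolute change was 9.67 percentage points, against 28.4 for the listed or biased genes. The 44 are not all separate signals: Map2k1 overlaps Uchl4 and Plet1 overlaps Plet1os, with correlated counts (r 0.999 and 0.974). For genes of very high counts, such as Rplp0, Rps2 and Eef1a1, shares are rounded to whole percentage points, which can understate their spread. In 38 of the 44 the groups did not overlap, which held for 4.15% of all genes tested. The number of such calls ranged from 9 to 47 when 1 library was left out, with 15, 19 and 9 without Dnmt1 replicates 1, 2 and 3, and it was 55 without wild-type embryos 6 and 8. Several of these genes had a strain bias. 2410003L11Rik stood at 41.0% ± 11.9 maternal reads in this cross and 1.55% in the reciprocal one, and rose to 81.5% ± 6.35 in Dnmt1 (edgeR adjusted p 0.0027, but 0.0752 without Dnmt1 replicate 3). Lpcat4, a lysophospholipid acyltransferase, fell from 95.1% ± 3.92 to 80.7% ± 3.30 (adjusted p 0.0319) and had 3.97% in the reciprocal cross. Tbck, a kinase-like regulator of mTOR signalling, fell from 72.9% ± 7.95 to 46.1% ± 1.04 (0.0249). Most calls of this group were lost without 1 of the Dnmt1 libraries: Lpcat4 had an adjusted p of 0.12, 0.0689 and 0.209 without replicates 1, 2 and 3, and Tbck of 0.139, 0.103 and 0.121.

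A ratio can move because the silent allele gains reads or because the active allele loses them, so maternal and paternal reads were also tested apart, over 9443 genes each. Of all genes, 549 (5.81%) rose and 673 (7.13%) fell in maternal reads, and 601 (6.36%) rose and 663 (7.02%) fell in paternal reads. Of the 42 parentally biased genes, 18 gained reads from the silent allele and 0 lost them, a direction that a level near 0 fixes in part. The active allele fell in 14 and rose in 3, and its median change was -0.44 (log2). Leaving out 1 library gave 17 to 21 silent-allele rises and 8 to 15 active-allele falls, with 8 falls without Dnmt1 replicate 3. Without wild-type embryos 6 and 8 there were 25 and 17. Scaling to total reads gave 22 silent-allele rises, 10 active-allele falls and 6 active-allele rises.

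The silent allele of Peg10 had 0 reads in all 7 wild-type libraries and 32.4 ± 9.16 CPM in Dnmt1 (SD, n = 3), at least 210-fold above a floor of 3 reads over the wild-type group. By the same measure the silent alleles of Meg3 and Rian were at least 121-fold and at least 95.7-fold higher. That of Kcnq1ot1 rose from 0.154 ± 0.406 to 25.9 ± 15.3 CPM, 173-fold with an exact counting interval of 58.3 to 847. H19's silent allele rose from 21.2 ± 36.3 to 1091 ± 311 CPM and that of Peg3 from 4.13 ± 8.56 to 197 ± 40.9 CPM. In noncanonical Slc38a4 it rose from 2.51 ± 2.51 to 135 ± 76.9 CPM, 57.5-fold (42.9 to 78.8). Several wild-type shares of Slc38a4 are known only to a whole percentage point, and its interval leaves that rounding out. Each of these 7 silent-allele changes passed the edgeR test, with the highest adjusted p, 0.00188, at H19.

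Active alleles did not move as 1 group. Sgce's paternal reads fell from 34.2 ± 10.1 to 14.8 ± 2.68 CPM (edgeR adjusted p 0.0112) while its silent allele rose to 15.2 ± 3.09 CPM. Mcts2's fell from 37.7 ± 9.73 to 21.8 ± 2.49 CPM (0.0464). Peg10's paternal reads rose from 18.7 ± 3.22 to 47.4 ± 10.8 CPM (0.000735), and Rian's maternal reads from 7.22 ± 3.54 to 53.8 ± 14.1 CPM (0.000319). In these 2 genes both alleles rose. In the Kcnq1ot1 domain the active allele fell past the threshold in 3 of 6 biased genes and rose past it in 0. It went from 43.0 ± 12.3 to 11.7 ± 8.85 CPM at Cdkn1c (0.00684), from 1326 ± 499 to 407 ± 249 CPM at Phlda2 (0.0107) and from 76.3 ± 18.4 to 27.9 ± 10.6 CPM at Cd81 (0.00518). At Grb10 it fell from 30.5 ± 5.24 to 3.53 ± 3.26 CPM (0.000775), with 9 silent-allele reads in the wild type and 1 in Dnmt1. Gm32885's active allele fell from 2540 ± 855 to 1027 ± 64.9 CPM (0.00152), and the transcripts Gm13261 and 2400006E01Rik fell by 1.46 each on the log2 scale (0.0017 and 0.00163).

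**Figure D2:**
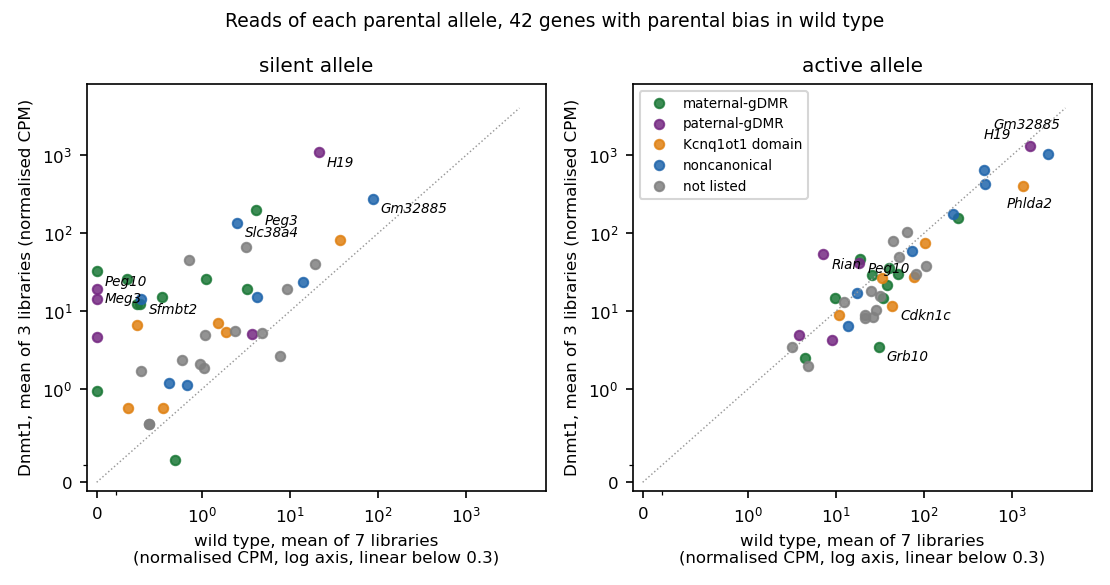
Mean normalised CPM of the silent allele (left) and the active allele (right) for the 42 parentally biased genes, wild type (x, n = 7) against Dnmt1 (y, n = 3), on log axes that are linear below 0.3; colours give the locus class and the dotted line equality. Most silent alleles lie above the line, while active alleles lie on both sides, with Rian and Peg10 above and Grb10 and Cdkn1c below.

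The second comparison concerned total expression. Of 9443 genes tested, 1741 (18.4%) changed at an adjusted p under 0.05, 859 (9.1%) higher and 882 (9.34%) lower in Dnmt1 (edgeR quasi-likelihood test). An unadjusted p under 0.05 was found in 31.8% of all genes, the groups did not overlap in 23.2%, and the median change over all genes was 0.01 (log2). The split between rises and falls depends on the scaling: with total reads in place of TMM factors the median moved to 0.23 and 1443 genes rose while 545 fell. The count was 588 without Dnmt1 replicate 3, 967 without replicate 2, 1003 without replicate 1 and 2841 without wild-type embryos 6 and 8.

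Of 43 listed imprinted genes tested, 11 (25.6%) changed in total level, against 18.4% of all genes. Of 21 maternal-gDMR genes, 3 rose and 1 fell (median 0.10, log2), of 5 paternal-gDMR genes 2 rose (median 1.31), of 10 Kcnq1ot1-domain genes 3 fell (median -0.27) and of 7 noncanonical genes 1 rose and 1 fell (median -0.07). Without wild-type embryos 6 and 8 the 4 lists held 18 changed genes (41.9%), against 31% of all genes. The maternal-gDMR list then had 7 rises and 2 falls and the paternal-gDMR list 4 rises. Rian showed the largest rise among the listed imprinted genes, at 49.6, 61.1 and 94.2 CPM against 1.59 to 11.6 (log2 3.23 ± 0.36; edgeR adjusted p 0.000169). Peg10 stood at 71.3, 65.9 and 102 CPM against 14.9 to 24.2, a 4.28-fold difference in means, and Kcnq1ot1 at 36.1, 23.6 and 61.8 against 3.97 to 14.6 (4.1-fold). In none of these 3 did the groups overlap. Meg3 rose to 25.1, 84.1 and 73.9 CPM from a median of 16.1, with replicate 1 inside the wild-type range of 8.69 to 36.7 (adjusted p 0.00987, but 0.0716 without Dnmt1 replicate 2 and 0.0715 without 3). Copg2 rose 2.96-fold (0.0128), a call also lost without Dnmt1 replicate 1 (0.0623) or 3 (0.0586).

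For several imprinted genes with a large shift of alleles, no change in total level passed the threshold, and for some of them this depended on the wild-type libraries used. H19 had 1728, 3084 and 2436 CPM against 1142 to 2503 with a median of 1342, so 1 Dnmt1 library lay above the wild type. It did not pass (edgeR adjusted p 0.112), but did in 6 alternatives: without wild-type embryo 6 (0.0462), without embryo 8 (0.0249), without both (4.01e-05), without a filter on low counts (0.0485), with total-read scaling (0.0179) and with the replicate block (7.13e-05). Peg3 had 404, 389 and 269 CPM against 145 to 462 (0.202, but 0.00891 without embryo 6, 0.000739 without embryos 6 and 8 and 0.000722 with the block). For Sgce, Snrpn-Snurf and Mcts2 the log2 difference was -0.20, -0.27 and -0.15, with adjusted p 0.653, 0.532 and 0.725, and for Sgce and Mcts2 its sign turned with total-read scaling. Snrpn-Snurf passed without embryos 6 and 8 (0.0429) and with the block (0.0366). Slc38a4 had 616, 409 and 665 CPM against 429.4 to 567.7 (0.408). The falls were Grb10, at 0.482, 6.97 and 3.52 CPM against 21.0 to 37.3 (adjusted p 0.000823), Cdkn1c, at 6.74, 7.5 and 22.7 against 31.1 to 67.6 (0.00575), and Phlda2, at 790, 207 and 467 against 802 to 2252 (0.018). Phlda2 lost its call without Dnmt1 replicate 2 or 3 (0.0733 and 0.0837) and with all knockouts in 1 fit (0.0723). Grb10 overlaps an uncharacterised gene with which it can share reads. Cd81 (28.9, 48.8 and 22.3 CPM against 48.2 to 96.1) and Gm32885 (1410, 1320 and 1178 against 1909 to 4759) fell too, at adjusted p 0.00874 and 0.0125. Each of these 2 calls was lost without Dnmt1 replicate 3 (0.0646 and 0.0709). Sfmbt2 rose 1.4-fold (0.0478), a call lost in 12 of 18 alternatives.

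Of 43 autosomal genes on the germline and meiosis list, 19 were expressed well enough to test. The read filter can admit a gene on its Dnmt1 libraries alone, as with Tuba3b below. The share that rose and the median change therefore depend in part on that filter. Among the 19, 6 rose (31.6%, against 9.1% of all genes) and 1 fell (5.26%, against 9.34%), with a median change of 0.94 (log2). The 6 were Tuba3a, Tuba3b, Rpl10l, Fkbp6, Tex19.1 and Cox7b2. Tuba3a and Tuba3b, near-identical alpha-tubulin genes of the testis between which reads may be divided uncertainly, stood at 109, 69.7 and 52.8 CPM against 7.28 to 16.7, and at 23.6, 23.0 and 21.9 CPM against 1.04 to 3.57. Both groups were well apart (log2 2.79 ± 0.26 and 3.61 ± 0.35; edgeR adjusted p 5.22e-05 and 5.79e-05). Rpl10l, a retrocopy of a ribosomal protein gene used in spermatogenesis and thus also open to misassigned reads, had 131, 156 and 113 CPM against 25.4 to 50.7 (0.000369). Tex19.1 (chromosome 11, 121146143 to 121148314), which restrains retrotransposons in germ cells and placenta, had 789, 723 and 811 CPM against 135 to 464. Its call (0.00851) weakened to 0.0538 without Dnmt1 replicate 3. Fkbp6 had 150, 209 and 146 CPM against 34.7 to 100 (0.00338). Cox7b2, a respiratory-chain subunit gene of the testis, had 6.26, 4.82 and 19.6 CPM against 0 to 5.2, with overlap. The gene that fell was Syce1, a synaptonemal complex protein, at 5.3, 9.11 and 10.9 CPM against 13.5 to 23.6. Other meiosis genes did not pass: Tex15 had 30.4, 15.0 and 24.2 CPM against 21.5 to 47.0 (0.155, but 0.0442 without wild-type embryos 6 and 8), and Sycp1 had 18.8, 8.04 and 20.3 against 8.21 to 34.5 (0.996). Without Dnmt1 replicate 3, 4 rose. Without wild-type embryos 6 and 8, 7 of 16 rose and 3 fell, where 15.7% of all genes rose and 15.3% fell.

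Promoters of the risen germline genes are shown because most of them share TCCCGC, the core of the motif of E2F6, a repressor that recruits methylation to germline promoters. In the 250 bases before the RefSeq start (GRCm38.p6), searched on both strands, TCCCGC occurred in 5 of the 6 risen genes and in 2 of 11 germline genes tested that did not rise. Listed germline genes too low to test are left out of these counts. Mael, Ddx4, Sycp3, Hormad1, Smc1b, Tdrd5, Tex14, Meioc and Rec8 also hold TCCCGC and were not called as risen, and most of them were too low to test. The motif therefore does not separate risen germline genes from the rest of the list. A gene with several start sites counted if any of its windows held the motif. It occurred in 35.3% of all expressed genes tested and in 16.9% of all 32851 promoters in the table. TGCCGC occurred in 4 of 18 biased genes that changed ratio and in 17.2% of all genes tested (8.68% of all promoters). The E-box motif CACGTG, counted in the same windows, occurred in 1 of the 6 risen germline genes. It occurred in 6 of the 11 that did not rise and in 10.4% of all genes tested. Tuba3a and Tuba3b are near-identical, so their matches to TCCCGC are not independent. A match describes letters, not binding. Copies of TCCCGC are in capitals, with GCGGGA where the motif lies on the other strand (Tuba3a chr6:125286082-125286331, minus strand; Tuba3b chr6:145615713-145615962, plus strand; Tex19.1 chr11:121145893-121146142, plus strand).
Tuba3a: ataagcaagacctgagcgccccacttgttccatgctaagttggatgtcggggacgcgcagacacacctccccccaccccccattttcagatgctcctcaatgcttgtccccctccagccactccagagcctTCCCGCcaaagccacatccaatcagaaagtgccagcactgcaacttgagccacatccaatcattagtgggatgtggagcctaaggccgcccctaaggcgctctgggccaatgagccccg
Tuba3b: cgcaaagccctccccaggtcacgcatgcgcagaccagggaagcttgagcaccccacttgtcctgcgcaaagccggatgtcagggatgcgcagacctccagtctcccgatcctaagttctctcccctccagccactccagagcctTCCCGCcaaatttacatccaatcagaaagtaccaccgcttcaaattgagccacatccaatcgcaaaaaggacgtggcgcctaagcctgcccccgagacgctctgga
Tex19.1: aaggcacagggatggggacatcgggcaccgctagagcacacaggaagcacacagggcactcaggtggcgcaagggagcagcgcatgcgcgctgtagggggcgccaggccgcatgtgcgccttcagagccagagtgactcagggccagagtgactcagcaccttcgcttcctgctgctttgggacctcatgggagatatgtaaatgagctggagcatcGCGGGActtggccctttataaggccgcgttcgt

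Outside the lists, the largest rises with no overlap between groups began with Rpl39l (chromosome 16), a testis-enriched ribosomal protein retrocopy, at 38.5, 32.2 and 31.3 CPM against 0 to 3.87 (log2 4.91 ± 0.63; edgeR adjusted p 0.000437). Its reads may be shared with the parent gene. Sh3bp1 stood at 9.63, 3.75 and 12.9 CPM against 0 to 1.19, and Hist1h3i, a histone H3 gene, at 5.78, 4.82 and 8.21 against 0 to 0.774. Ssbp4 and Gm4316 rose by 4.00 and 3.94 (log2). Cited2 (chromosome 10), a co-regulator needed for the placenta, had 35.2, 20.9 and 32.8 CPM against 0.347 to 4.26 (0.000369). Lims2, an adaptor of focal adhesions, rose 11.6-fold, but its call (0.0179) was lost without Dnmt1 replicate 1 (0.0774) or 3 (0.0747) and by DESeq2 (0.169). Tmem63b, an ion channel, and Rbm14, an RNA-binding protein that shares reads with Gm21992, rose by 3.54 and 3.47 (log2), and the overlapping pair Gm39429 and Mir6236 by 3.93 and 3.89.

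The largest falls were of low genes with wide wild-type spread. Gm40831 had 0, 0.536 and 1.17 CPM against 3.28 to 26.1, and Slc5a4b, a glucose sensor that shares its reads with Gm16222, had 0, 2.68 and 0.391 against 3.98 to 46.9. Gmeb2, a DNA-binding co-regulator, had 6.74, 12.3 and 7.82 CPM against 35.5 to 265, where wild-type embryo 8 gave the top value. Acbd7, an acyl-CoA binding protein, fell more evenly, to 3.85, 3.22 and 2.35 CPM from 11.5 to 31.4 (log2 -2.72 ± 0.41; edgeR adjusted p 0.00106). Gm40674, which shares reads with Col13a1, Gm33682, Gm30984 and A730063M14Rik fell by 3.46, 3.36, 3.04 and 2.82 on the log2 scale. Zbtb39 and Pcca, a subunit of propionyl-CoA carboxylase, fell by 2.96 and 2.78. Each of those last 2 calls was lost without any 1 Dnmt1 library (adjusted p 0.058 to 0.128 and 0.0698 to 0.1) and with the replicate block (0.073 and 0.106), and that of Pcca also with all knockouts in 1 fit (0.0733). Gm40831 lost its call without Dnmt1 replicate 1 (0.0612) or 2 (0.0572), Slc5a4b without 1 (0.0891) or 3 (0.117), A730063M14Rik without 1 (0.0535) or 3 (0.0809), and Gmeb2 and Gm30984 without 3 (0.0588 and 0.0538).

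**Figure D3:**
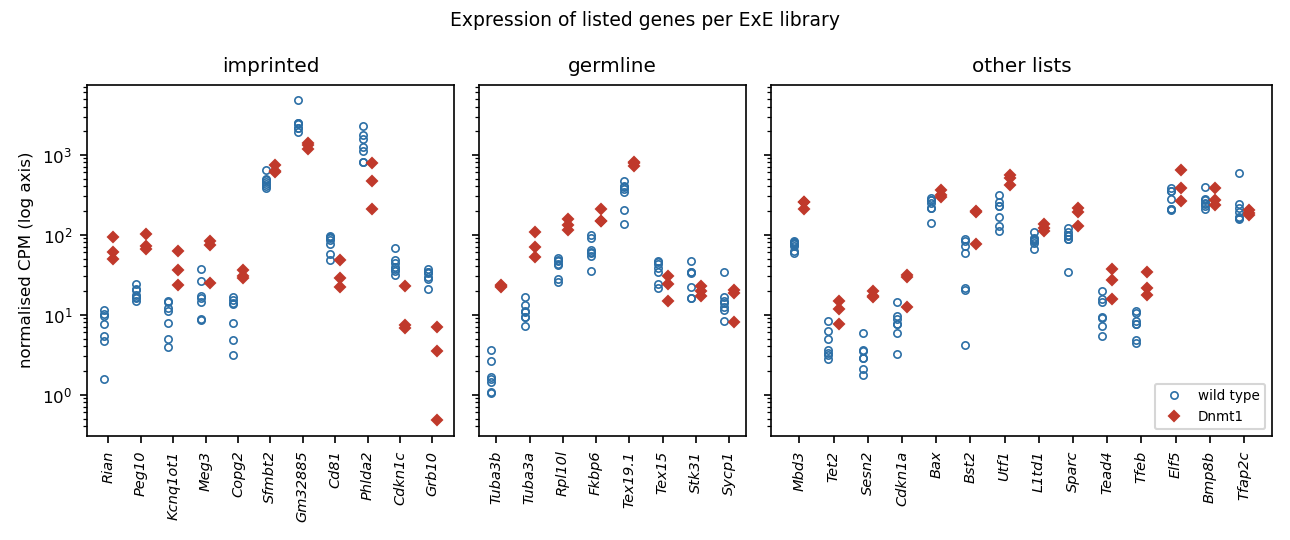
Normalised CPM (log axis) of listed imprinted, germline and other genes, with 1 point per ExE library: 7 wild type (open circles) and 3 Dnmt1 (filled diamonds). Rian, Peg10, Tuba3a, Tuba3b, Mbd3 and Sesn2 lie above every wild-type library, and Grb10 and Cdkn1c below.

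Among 17 genes of the DNA methylation machinery, 2 rose (11.8%, near the 9.1% of all genes), 0 fell and the median change was -0.39 (log2). Without wild-type embryos 6 and 8, 4 rose (23.5%, against 15.7% of all genes) and 2 fell. Mbd3, a subunit of the NuRD repressor complex, stood at 254, 212 and 254 CPM against 58.2 to 82.3 (edgeR adjusted p 3.96e-05). All its reads are shared with the overlapping Gm30823, so the rise cannot be assigned to 1 of them. Tet2, a methylcytosine dioxygenase, had 7.71, 11.8 and 14.9 CPM against 2.77 to 8.33 (0.0299). Its call was lost without Dnmt1 replicate 2 (0.0956) or 3 (0.203) and without wild-type embryo 1 (0.052) or 3 (0.0521). The de novo enzyme Dnmt3b had 468, 611 and 614 CPM, below the wild type at 628 to 1136, but did not pass (0.0885), though it did without embryos 6 and 8 (0.0336) and with sex as a covariate (0.0136). Uhrf1, the cofactor of Dnmt1, had a difference of 0.15 (log2) and did not pass (0.737).

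Of 15 p53 target genes tested, 2 rose (13.3%, against 9.1% of all genes) and 0 fell. The number that rose was 1 to 3 without any 1 library. It was 4 of 13 without wild-type embryos 6 and 8 (30.8%, against 15.7% of all genes). Sesn2, a stress-response inhibitor of mTORC1, stood at 17.3, 16.6 and 19.6 CPM against 1.77 to 5.95 (log2 2.45 ± 0.34; edgeR adjusted p 0.000678). Cdkn1a, the cell-cycle inhibitor p21, had 12.5, 29.5 and 30.9 CPM against 3.23 to 14.6, with replicate 1 inside the wild-type range. Its call (0.0106) was lost without Dnmt1 replicate 2 (0.0633) or 3 (0.0915) and with all knockouts in 1 fit (0.0936). Bax, a pro-apoptotic gene, had 315, 365 and 296 CPM against 140 to 289, with no overlap, and did not pass (0.112), though it did without embryos 6 and 8 (0.0289) and with total-read scaling (0.0261). Of 25 interferon-response genes, 5 were expressed well enough to test, and 0 passed by edgeR or DESeq2, with 2 at an unadjusted p under 0.05. Bst2, an antiviral membrane protein, came nearest, at 75.6, 194 and 196 CPM against 4.16 to 87.3 (0.0577, and 0.00653 without wild-type embryos 6 and 8). It passed in 7 of the alternatives run. Isg15 and Irf7, defining genes of that response, had at most 1.07 and 1.45 CPM in the Dnmt1 libraries.

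Of 21 genes of ExE identity, 19 were expressed well enough to test. Tfap2a and Furin were not: Tfap2a had at most 1.17 CPM in Dnmt1 and 0 to 3.98 in the wild type, and Furin at most 5.47 and 0.443. Of the 19, 1 rose (5.26%, against 9.1% of all genes) and 0 fell. Without wild-type embryos 6 and 8, 4 rose (21.1%, against 15.7% of all genes) and 1 fell (5.26%, against 15.3%). The list's summed level was 1211 to 1956 CPM in Dnmt1 and 1084 to 1891 in the wild type. Elf5, a transcription factor of the trophoblast stem state, had 382, 261 and 637 CPM against 202 to 387 (edgeR adjusted p 0.137, but 0.0105 with the replicate block and 0.0493 with total-read scaling), and Bmp8b, a signal to the epiblast, 233, 270 and 381 against 206 to 397 (0.692). The gene that rose was Tead4, a partner of Yap in trophectoderm, at 15.9, 37.0 and 27.0 CPM against 5.42 to 19.9 (0.0348). It lost its call without Dnmt1 replicate 2 (0.205) or 3 (0.127) and without wild-type embryo 2 (0.0506), 3 (0.0584) or 7 (0.0627). Of 10 trophoblast differentiation genes, 2 rose (20%, against 9.1% of all genes) and 0 fell. Without wild-type embryos 6 and 8, 3 of them rose (30%, against 15.7% of all genes). Tfeb, a transcription factor of placental vessels, had 21.7, 17.7 and 34.0 CPM against 4.43 to 11.2 (0.00332), and lost its call without Dnmt1 replicate 3 (0.0511). Plet1 and Ascl2, at differences of -0.02 and -0.31 (log2), did not pass and turned sign in some alternatives.

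Markers of other tissues that a dissection could carry over were examined as well. Of 4 epiblast markers tested, 2 rose (50%, against 9.1% of all genes) and 0 fell. All 4 had a positive change, with a median of 0.798 (log2), and 2 did not pass. Without wild-type embryos 6 and 8, 2 of 3 rose (66.7%, against 15.7% of all genes). Utf1 and L1td1 of the epiblast list rose, Utf1 to 422, 508 and 552 CPM from 111 to 315 (edgeR adjusted p 0.00454) and L1td1 to 112, 136 and 122 from 66.2 to 108 (0.039, lost in 10 of 18 alternatives). The summed level of the epiblast list was 549.7 to 685 CPM in Dnmt1 and 195 to 402 in the wild type, mostly from those 2 genes. The epiblast markers Pou5f1 and Otx2 were near 0: Pou5f1 had at most 0.536 CPM in Dnmt1 and 0 in the wild type, and Otx2 at most 0.482 and 1.39 CPM. Of 18 visceral endoderm markers, 2 could be tested and 0 passed by edgeR or DESeq2 (1 at an unadjusted p under 0.05, and 1 past the threshold without wild-type embryos 6 and 8), the sums were 19.8 to 49.3 CPM against 15.4 to 36.7, and Ttr and Apoa1 had at most 2.14 and 0 CPM in Dnmt1. Parietal endoderm markers summed to 132 to 218 CPM against 38.8 to 124, nearly all of it Sparc, a matrix protein that rose (0.0242, but 0.126 and 0.119 without Dnmt1 replicates 2 and 3). Primitive streak and decidua or blood markers summed to at most 7.5 and 1.07 CPM in Dnmt1, and 0 of their genes could be tested. The part of carried-over cells in other results was not tested beyond these levels.

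Because the labels tie ExE and epiblast to the same embryos, the effect of the knockout could be compared between tissues by the interaction of tissue and genotype. For expression, 24 of 10957 genes (0.219%) passed, 2 (0.0183%) with the more positive log2 change in ExE and 22 (0.201%) in epiblast. Of 25 germline genes tested, 6 had the more positive change in epiblast and 0 in ExE. With the embryo as a block the count was 7, and it was 2 without any 1 Dnmt1 ExE library or without the epiblast library of Dnmt1 embryo 3. Sycp1, a synaptonemal complex protein, rose in epiblast from 1.00 ± 0.980 to 53.0 ± 19.5 CPM while ExE stood at 16.0 ± 8.6 and 15.7 ± 6.70 (difference of log2 changes -5.69 ± 0.71; edgeR adjusted p 0.000179). Tex15, a factor of piRNA-directed methylation, went from 7.82 ± 3.5 to 45.2 ± 10.9 CPM in epiblast and from 36.2 ± 10.3 to 23.2 ± 7.73 in ExE (0.00134). Both of these held without any 1 library.

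Tex19.1 rose in both tissues, from 3.65 ± 1.94 to 49.8 ± 19.9 CPM in epiblast and from 332 ± 118 to 774 ± 45.8 in ExE, and the difference of the log2 changes was -2.56 ± 0.50 (edgeR adjusted p 0.0218). Fkbp6 reached 171 ± 72.6 CPM in epiblast from 12.6 ± 5.92 and 169 ± 35.1 in ExE from 66.6 ± 22.4 (-2.40 ± 0.47; 0.0218). Tuba3b rose from 0.301 ± 0.296 to 40.8 ± 13.7 CPM in epiblast and from 1.85 ± 0.927 to 22.8 ± 0.871 in ExE (0.0232). For Tuba3b, Tex19.1, Fkbp6 and Dazl, leaving out any of the 3 Dnmt1 ExE libraries or the epiblast library of Dnmt1 embryo 3 ended the call (adjusted p 0.0566 to 0.11). So did leaving out epiblast of Dnmt1 embryo 1 for Dazl (0.106) and of wild-type embryo 7 for Tuba3b (0.0505). Dazl, an RNA-binding regulator of germ cells, had 2.74 ± 1.10 CPM in Dnmt1 ExE and 10.5 ± 3.48 in Dnmt1 epiblast, and its difference (0.0232) did not hold with the embryo block (0.0847). For several of these genes the wild-type level was higher in ExE than in epiblast, and a log2 change then starts from a different base in the 2 tissues.

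**Figure D4:**
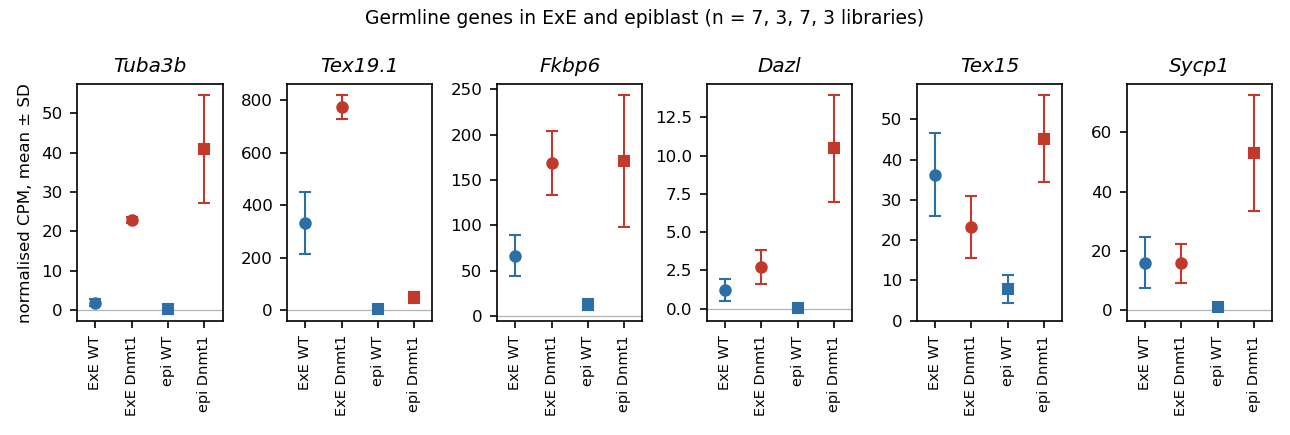
Mean normalised CPM ± SD of the 6 germline genes whose change differed between tissues, for wild-type ExE (n = 7), Dnmt1 ExE (n = 3), wild-type epiblast (n = 7) and Dnmt1 epiblast (n = 3); each panel has its own axis. Sycp1 and Tex15 are higher in Dnmt1 than in wild-type epiblast, while their Dnmt1 means in ExE lie at or below the wild type.

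For the allele ratio, 0 of 6405 genes passed the interaction of tissue and genotype in the unpaired edgeR fit, where 332 (5.18%) had an unadjusted p under 0.05, and limma gave 1. With the embryo as a block, since the labels give both tissues of an embryo, 7 passed, among them Gm32885, Sfmbt2, H19, Impact and Jade1. Gm32885 rose from 2.71% ± 1.89 to 21.0% ± 2.26 maternal reads in ExE and stood at 7.35% ± 2.46 and 6.56% ± 1.11 in wild-type and Dnmt1 epiblast (adjusted p 2.11e-08 with the block and 0.0617 without). Sfmbt2 moved in both tissues. Its maternal share was 58.2% ± 24.8 (n = 5) in wild-type and 16.7% ± 14.9 (n = 3) in Dnmt1 epiblast. In ExE it was 0.0551% ± 0.0941 and 2.01% ± 2.65, with overlap (0.00149 with the block and 0.0536 without). Jade1 stood at 47.7% ± 8.90 and 44.6% ± 6.91 in wild-type and Dnmt1 epiblast, where both alleles are read alike, against 5.44% ± 1.72 and 19.3% ± 8.86 in ExE (0.0449 with the block). For Impact, the silent share rose from 3.48% ± 1.38 to 47.6% ± 1.15 in epiblast and from 14.8% ± 7.82 to 42.5% ± 8.79 in ExE (0.0323 with the block). H19's silent share rose from 18.0% ± 7.26 to 41.8% ± 14.1 in epiblast (n = 7 and 3) and from 1.14% ± 2.04 to 45.2% ± 0.778 in ExE (0.0316). For the other canonical genes the test gave no call, with Peg3 at 61.3% ± 3.81 in Dnmt1 epiblast and 55.5% ± 0.687 in Dnmt1 ExE, and Kcnq1ot1 at 56.8% ± 4.88 and 62.4% ± 8.53.

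The Dnmt1 ExE libraries were last set against ExE without G9a and Glp, the enzymes of histone H3 lysine 9 dimethylation, by a direct test of the allele ratio between the knockouts. This pair was chosen as the knockouts with the fewest (Dnmt1) and the most (G9a-Glp) changes at noncanonical imprints. The direction at noncanonical genes was thus part of the choice, and their p-values below are no independent support for it. Both knockouts are compared with the same wild-type libraries elsewhere, so only their own values are given side by side. Of 7686 genes, 24 (0.312%) differed, 11 (0.143%) more maternal in Dnmt1 and 13 (0.169%) more paternal. An unadjusted p under 0.05 was found in 6.86%, and no overlap in 2.38%. Canonical genes had the higher silent share in Dnmt1: Snrpn-Snurf had 29.5% ± 9.03 (n = 3) against 0.264% ± 0.496 in G9a-Glp (n = 8; log2 6.59 ± 0.53; edgeR adjusted p 5.51e-09), Kcnq1ot1 62.4% ± 8.53 against 3.76% ± 3.89 (4.68e-07), Mest 43.0% ± 8.64 against 2.77% ± 5.39 (5.77e-06) and Sgce 50.5% ± 9.16 against 5.87% ± 6.55 (0.000104). Noncanonical genes had the higher silent share in G9a-Glp. Gab1 stood at 11.7% ± 4.16 in Dnmt1 and 56.1% ± 3.35 in G9a-Glp (2.07e-09), Sfmbt2 at 2.01% ± 2.65 and 41.0% ± 9.01 (8.64e-09), Jade1 at 19.3% ± 8.86 and 46.6% ± 3.47 (5.1e-05) and Smoc1 at 6.22% ± 7.69 and 55.4% ± 8.09 (9.35e-05).

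For Slc38a4 the silent share was 22.7% ± 8.93 in Dnmt1 and 29.9% ± 13.6 in G9a-Glp, and the difference, -0.46 ± 0.53 in log2 ratio, did not pass (edgeR adjusted p 0.94). A p that misses the threshold does not show that the knockouts act alike there. Platr20, a noncoding transcript of low coverage, stood at 11% and 51.9% and did not pass either (0.252). Peg10, Peg3, Meg3, Rian and Gm32885 were also among the 24 genes. Over the alternatives run, the count of 24 ranged from 18 to 28.

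**Figure D5:**
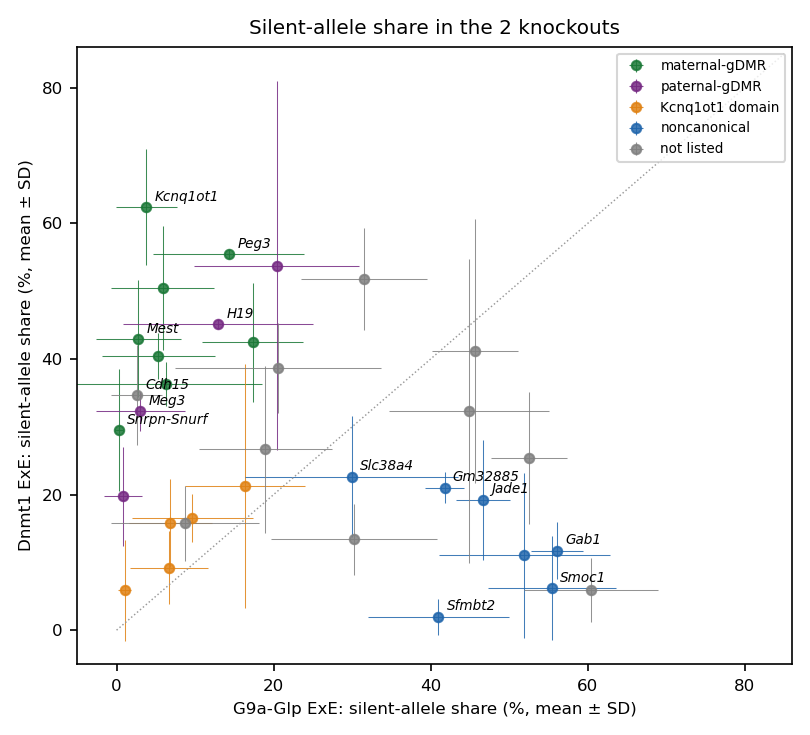
Silent-allele share (mean ± SD) of the 34 parentally biased genes measured in both knockouts, G9a-Glp ExE (x, n up to 8) against Dnmt1 ExE (y, n up to 3), coloured by locus class; the dotted line marks equality. Canonical genes such as Kcnq1ot1 and Mest lie at the upper left and the noncanonical genes Gab1, Smoc1 and Sfmbt2 at the lower right.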

How the data were processed

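RNA of single dissected tissues (full-length cDNA) was sequenced in 72 libraries. The submitters' processing notes name STAR 2.5.0, HTSeq and the mm10 build, with no role given. For each gene and library the authors deposited a count of reads over polymorphisms, the allelic ratio to 2 decimals and an allelic score, which per the file headers and values is a signed −log10 binomial p-value, set to 0 under 10 reads. Maternal and paternal reads were recovered from the 3 columns: 712201 of 712250 scored values gave whole reads (99.993%, tolerance 0.002). A further 3399 values stood at the score's limit and give the ratio only to a whole percentage point. Samples were grouped by labels, and the replicates are separate embryos.

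Counts were tested with edgeR 4.0.16 (quasi-likelihood, TMM scaling, filterByExpr, threshold 0.05 after Benjamini-Hochberg adjustment) in R 4.3.3. Allele ratios were tested as the interaction of allele and group with a term for each library, on genes with at least 10 reads in 3 libraries of each group. DESeq2 1.42.0, limma 3.58.1 (pseudocount 0.5), read minimums of 20 and 50, other scalings, sex, a replicate block and omission of libraries were alternatives. Total-read scaling and the omission of wild-type embryos 6 and 8 together were chosen after seeing the data. The script was tested on simulated data. Replicate numbers did not pair ExE Dnmt1 with wild-type embryos, so the replicate block there joins unrelated embryos. Wild-type embryos whose number no Dnmt1 library has add nothing to that blocked difference. In the tissue comparison the numbers mark the same embryo, per the labels. Coordinates are the file's starts plus 1 (mm10). Promoters came from RefSeq (GRCm38.p6). Counting error only is covered by intervals, which are exact at 95%. Genes were named by a rule: in expression the 12 largest rises and falls without overlap at a mean of at least 5 CPM, in allele ratio the listed genes, the 10 largest other changes and 12 not called, then up to 5 changed and 3 other genes a list and 8 genes a contrast. Genes, lists and tests were chosen with earlier results of these data known. Other knockouts of the series entered only the alternative with all groups in 1 fit, and sex chromosomes were not analysed here. A trophoblast differentiation gene is not reported here.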

Additional observations from a re-analysis of the deposited data

Results flagged for a closer look

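In 26 of 126 wild-type values examined, 1 of the 7 embryos lay far from the other 6 (Dixon's gap test). Chance gives about 1 in 20 for independent, normally distributed values. That rate does not hold here, because several shares lie mostly at an extreme and some genes, such as Slc5a4b and Gm16222, share reads. Embryo 8 gave the highest level of Slc5a4b (46.9 CPM), Gm16222 (46.5), Gm40674 (39.8), Gmeb2 (265), A730063M14Rik (42.5), Gm32885 (4759), Sycp1 (34.5) and Rbp4 (11.5). Embryo 6 gave the highest level of Zbtb39 (23.2 CPM), Peg3 (462), Igf2 (37.1), Sfmbt2 (642), Gab1 (395), Bmp8b (397) and Tfap2c (583), and the lowest of Sparc (34.3). Embryo 2 stood out for Gm4316 (2.32 CPM) and embryo 4 for Lims2 (13.1 CPM), both high. Embryos 6 and 8, whose libraries were least like the other wild-type ones, account for 16 of these 18 levels.

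Among maternal shares, the high embryos were 3 for Peg3 (9.82%), 7 for Kcnq1ot1 (8.82%), 6 for Snrpn-Snurf (2.20%), 2 for Mcts2 (3.00%) and 8 for Gm32885 (7.00%). The low ones were 6 for Phlda2 (93.0%), 8 for Ascl2 (97.6%) and 2 for Cd81 (91.8%). All of them lay on the wild-type side of every Dnmt1 library.

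The log2 change in ExE minus that in epiblast passed the test of the difference for Dazl (-5.34), Sycp1 (-5.69), Tex19.1 (-2.56), Tex15 (-3.13), Tuba3b (-3.38) and Fkbp6 (-2.40), each with the more positive change in epiblast.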

How the results depend on the processing

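The counts of genes past the threshold depended on single libraries. For expression the count of 1741 ran from 588 to 2153 without 1 library, and was 2841 without wild-type embryos 6 and 8. DESeq2 gave 2089, of which 1734 were among the 1741, and RLE factors gave 1744. For the allele ratio the count of 66 ran from 28 to 69 without 1 library, with 43 without wild-type embryo 7, and limma gave 52. For maternal reads the count of 1222 ran from 325 to 1574 (634, 602 and 325 without Dnmt1 replicates 1, 2 and 3), and for paternal reads the count of 1264 from 417 to 1643 (764, 711 and 417). Without wild-type embryos 6 and 8 they were 2046 and 2158. The allelic difference between tissues gave 0 genes, 0 to 2 without 1 library, 1 by limma, 1 without wild-type embryos 6 and 8 and 7 with the embryo as replicate block. The expression difference between tissues gave 24, 101 by DESeq2, 55 without a filter on low counts, 38 without embryos 6 and 8, 32 with the block and 14 to 66 without 1 library (14 without Dnmt1 ExE replicate 2, 66 without epiblast of wild-type embryo 8). Leaving out a library also lowers the number of samples, and otherwise the cause was not tested. For ExE against wild type the replicate numbers pair no samples (correlations of deviations 0.0517, -0.0417 and -0.0085), and the replicate block gave 2034 genes for expression and 64 for the allele ratio, with no library most like its own number.

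Values of named genes kept their direction and side of the threshold in 1421 cases for expression and 629 for the allele ratio, lost the threshold in 71 and 63, passed it anew in 49 and 6, and changed sign in 41 and 6. Sign changes concern genes whose values did not pass, all on the log2 scale. With the replicate block the expression values were Igf2 0.082, Gab1 0.0095, Jade1 0.12, Sycp1 0.42, Ifitm3 0.076, Ccng1 0.13, Tfap2c 0.015, Plet1 0.33 and Mcts2 0.21. With total-read scaling they were Tssc4 0.21, Gab1 0.023, Jade1 0.15, Sycp1 0.25, Plet1 0.22, Sgce 0.019 and Mcts2 0.092. Without wild-type embryos 6 and 8 they were Igf2 0.24, Tssc4 0.030, Gab1 0.043, Jade1 0.13, Sycp1 0.27, Ifitm3 0.053, Plet1 0.0047 and Mcts2 0.0011. With sex as a covariate the value was Tssc4 0.0014. Without 1 library they ranged over Igf2 -0.64 to 0.13, Ascl2 -0.62 to 0.026, Tssc4 -0.13 to 0.053, Jade1 -0.27 to 0.053, Sycp1 -0.26 to 0.29, Bmp8b -0.12 to 0.26, Plet1 -0.17 to 0.14 and Nanog -0.15 to 1.14. For the allele ratio the block gave Dhcr7 -0.051, omission of embryos 6 and 8 gave Copg2 0.062, and without 1 library values ranged over Commd1 -0.54 to 0.29, Dhcr7 -0.22 to 0.62, Smoc1 -0.64 to 2.16 and Copg2 -0.24 to 0.066. Few reads limit Grb10, Igf2, Cdkn1c and Rian.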

Other observations

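Beyond the germline list, other genes had a different response in the 2 tissues, and those given here were chosen after their values were seen. Dppa2 and Dppa4, a pair of chromatin proteins of pluripotent and germ cells, stood at 73.1 ± 29.2 and 532.7 ± 94.9 CPM in wild-type ExE (SD, n = 7) and at 39.8 ± 17.8 and 358 ± 85.3 in Dnmt1 ExE (n = 3). In epiblast they stood at 1.35 ± 0.942 and 7.12 ± 3.62 in the wild type and 28.6 ± 23.1 and 89.1 ± 77.6 in Dnmt1. The log2 change in ExE minus that in epiblast was -5.23 for Dppa2 and -4.20 for Dppa4, and both passed the edgeR test of the difference.

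The 2 genes with the more positive change in ExE were Adssl1 and Mllt11. Adssl1, an adenylosuccinate synthase of the purine nucleotide cycle, stood at 1.06 ± 0.499 CPM in wild-type and 7.77 ± 1.27 in Dnmt1 ExE, against 5.46 ± 1.42 and 2.66 ± 0.267 in epiblast (edgeR adjusted p 0.0034). Jade2 stood at 4.24 ± 1.53 CPM in wild-type and 0.391 ± 0.677 in Dnmt1 ExE, against 33.3 ± 7.49 and 38.6 ± 5.72 in epiblast (0.0369).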
